A study of Mus musculus with 12 samples.

Results

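Phospholamban (PLN) holds the calcium pump SERCA2a in check until a kinase phosphorylates it, and 10 genes that encode the machinery around that switch were followed in the left (LV) and right ventricle (RV) of mice with a human WT-PLN or an R14del-PLN knock-in. They were the rows whose symbol was Prkaca, Prkar1a, Prkar2a, Ppp1ca, Ppp1cb, Ppp1cc, Ppp1r1a, Ppp1r3a, Hax1 or Hspb6, and all 10 were found among the 33641 genes listed. The rule matches symbols only. None of the 10 passed the test for a genotype or a ventricle difference. Ppp1cb, a catalytic subunit of protein phosphatase 1 (PP1), came nearest in the genotype comparisons, with a mean TPM in R14del-PLN hearts that differed from WT-PLN by -23.1% in the LV and -17.8% in the RV.

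When adrenergic receptors raise cAMP, the regulatory subunits of protein kinase A (PKA) release the catalytic subunits, which phosphorylate PLN at serine 16. Inhibition of SERCA2a is thereby relieved, calcium returns faster to the sarcoplasmic reticulum and the heart relaxes faster. PP1 removes the phosphate, inhibitor-1 blocks PP1 when PKA has phosphorylated it, and the partner proteins HSP20 and HAX-1 bind PLN or the PP1 complex and shift the balance.

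The 4 groups held 3 samples each: LV WT-PLN, RV WT-PLN, LV R14del-PLN and RV R14del-PLN. All mice were labelled C57BL/6J and 12 to 14 weeks old, and the study's methods describe a hybrid line from chimeras of 129/Sv-CP and C57Bl/6J background bred to Sox2-Cre mice. In both genotypes the mouse coding sequence was replaced by a human one, so the WT-PLN controls are also knock-ins. The methods give the R14del-PLN animals as heterozygous males with 1 mutant and 1 wild-type human allele. RNA came from whole ventricle tissue, in which fewer cells of a type and less RNA per cell cannot be told apart. The labels do not say which samples came from the same mouse, so p-values measure the spread between these samples.

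Levels are in TPM, the share of all transcripts of a sample corrected for gene length and scaled to a sum of 1000000, and the values keep no record of sequencing depth. Mitochondrially encoded genes took 37.3% to 54.5% of the TPM of a sample. The share ranged over 44.0% to 47.3% in LV WT-PLN, 48.7% to 52.8% in RV WT-PLN, 37.3% to 51.2% in LV R14del-PLN and 51.1% to 54.5% in RV R14del-PLN. In both samples of WT-PLN replicate 1, 4 Y-linked genes were at most 0.191 TPM, against at least 3.03 TPM in the other 10 samples, although the methods describe males. The file of RV R14del-PLN replicate 3 carries another run number than the other 11. All 8 ventricular cardiomyocyte markers were above 0 in every sample, and their sum ranged from 25600 to 38187 TPM. The sum of 7 atrial markers ranged from 58.7 to 1343 TPM, with Sln or Bmp10 listed at 0 in some samples.

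Because PKA acts on PLN at a short target sequence, codons of that kind are shown first. The motif searched in the reading frame was an arginine codon (CGN, AGA or AGG) followed by another, any codon, and then a serine (TCN, AGT or AGC) or threonine (ACN) codon. It was read from the GENCODE M21 mouse transcripts on GRCm38, on the coding strand. Of the 10 genes, 5 held it, and 22.5% of 21625 mouse coding genes did. Each line gives 10 codons, 5′ to 3′, with the motif in capitals.
Pln, codons 10 to 19: tcggctatcAGGAGAGCCTCCactattgaa
Hspb6, codons 10 to 19: tcttggctgCGCCGTGCTTCAgctccttta
Ppp1r1a, codons 29 to 38: attcggaggCGCCGCCCCACCcctgccaca
Ppp1r3a, codons 42 to 51: cagccaagcAGACGCGGGTCAggatcttcg
Ppp1r3a, codons 61 to 70: tcagcttccCGGAGAGTTTCCtttgctgac
Prkar2a, codons 91 to 100: aaatttactAGACGAGTATCAgtctgtgca
In Pln (chr10:53343891-53343920, plus strand, its only coding exon) the arginine codons are 13 and 14, and the serine codon is 16. R14del takes away codon 14, one of that pair of arginines. The mice carry the human coding sequence, which was not read here. Hspb6 (chr7:30553362-30553391, plus strand, coding exon 1 of 3) has the motif at the same codons, 13, 14 and 16, and this is the site at which PKA is known to phosphorylate HSP20. In Ppp1r1a (chr15:103534381-103534410, minus strand, coding exon 2 of 7) threonine codon 35 is the site that makes inhibitor-1 active. Ppp1r3a has a pair of motifs in coding exon 1 of 4 on the minus strand, ending at serine codon 48 (chr6:14755094-14755123) and at serine codon 67 (chr6:14755037-14755066). In Prkar2a, serine codon 97 lies in the stretch where a regulatory subunit of this type sits in the active site of the kinase, and the 10 codons, joined across an intron, lie between bases 108714287 and 108716870 of chromosome 9. Hax1 matched once, at threonine codon 239. Prkaca, Prkar1a, Ppp1ca, Ppp1cb and Ppp1cc had no match. A match is a description of the letters and no evidence of phosphorylation in these hearts.

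By level, the genes spanned a wide range. Hspb6 stood highest with a mean of 426 TPM over the 12 samples, which was 24.6% of the mean of Pln. Next came Ppp1cb at 129 TPM, Ppp1ca at 114 TPM, Prkar1a at 103 TPM and Prkaca at 101 TPM. These neighbours overlapped: Ppp1cb was above Ppp1ca in 11 of 12 samples, Ppp1ca above Prkar1a in 10, and Prkar1a above Prkaca in 6. Ppp1cc followed at 46.5 TPM, Prkar2a at 27.5 TPM, Ppp1r3a at 24.5 TPM and Hax1 at 16.8 TPM, and again the ranges of neighbours overlapped. Ppp1r1a was the lowest at 0.706 TPM, with 0.361 to 1.17 TPM in the 12 samples, close to the minimum mean of 0.5 TPM for testing. The ranges did not overlap between Hspb6 and Ppp1cb, between Prkaca and Ppp1cc, or between Hax1 and Ppp1r1a. In these mice the coding sequence of Pln is human, and the methods describe mapping to the mouse genome. How reads of the human sequence were counted is not stated, so the level of Pln is uncertain. GENCODE M21 also holds Gm47644, a copy of Pln at 99.1% identity. It overlaps Pln on the other strand and has no row in the deposited values.

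**Figure D1:**
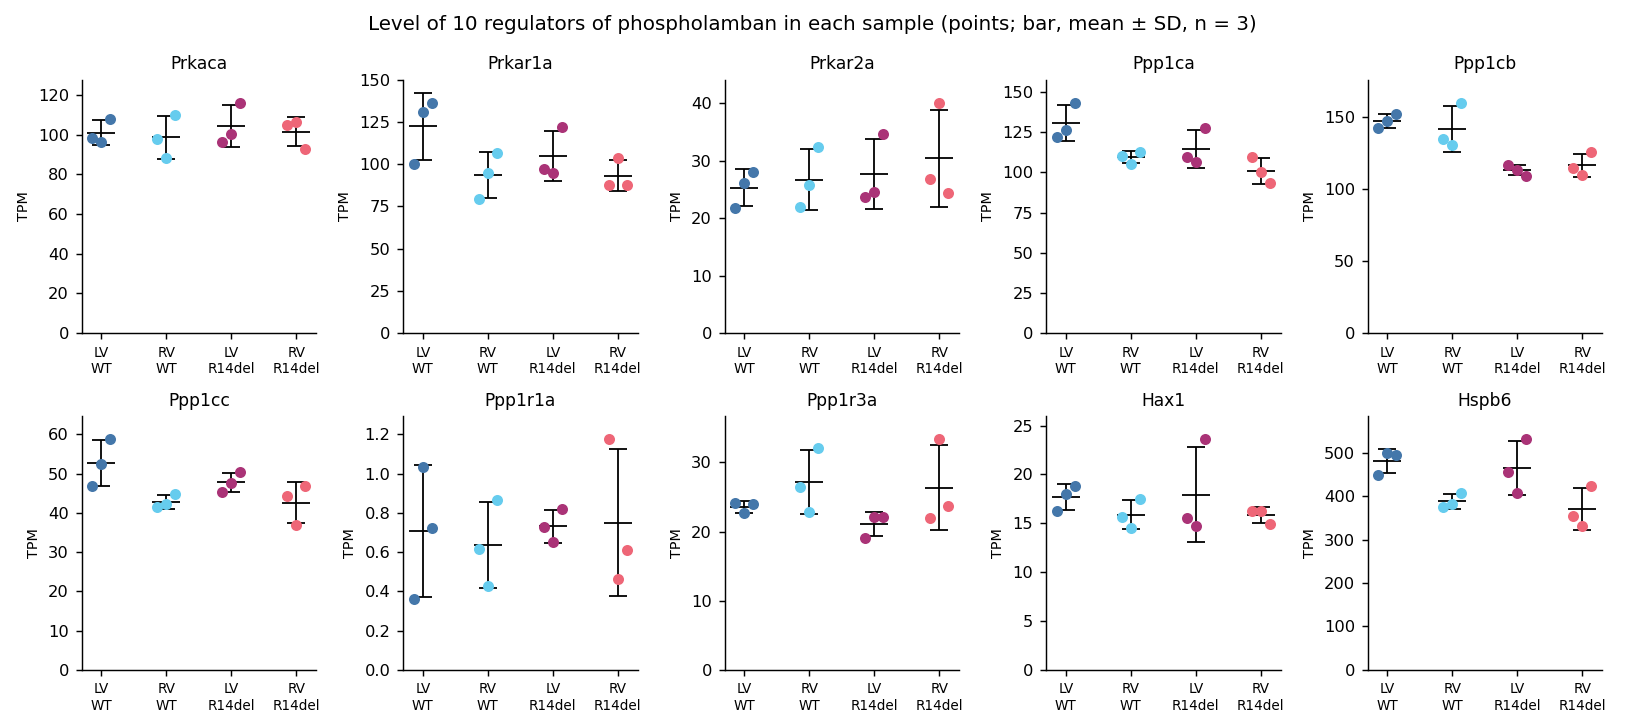
Level in TPM (y axes, each from 0) of the 10 genes in LV and RV of WT-PLN and R14del-PLN hearts; each point is a sample and the bar gives mean ± SD (n = 3). For Ppp1cb the R14del-PLN samples, at 109 to 125 TPM, lie below the WT-PLN samples, at 130 to 160 TPM, whereas most other genes overlap between groups.

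The test was limma on log2(TPM + 1) over the 12526 genes that averaged 0.5 TPM or more, as all 10 did. The call required an adjusted p (Benjamini-Hochberg) no higher than 0.05 together with a fold of 1.5 or more. Between genotypes, 65 genes were called in the LV (0.519%) and 34 in the RV (0.271%), and 0 of the 10 in either. Between ventricles, 0 genes were called in WT-PLN hearts (0%) and 0 in R14del-PLN hearts (0%), and the interaction of genotype and ventricle also called 0 (0%). At an unadjusted p under 0.05, limma gave 1 of the 10 in the LV genotype comparison, against 9.6% of all genes, and 1 in the RV comparison, against 6.22%. For RV versus LV there were 4 of 10 in WT-PLN, against 14.5% of all genes, and 1 of 10 in R14del-PLN, against 6.57%. The interaction gave 0 of 10, against 1.01%.

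**Figure D2:**
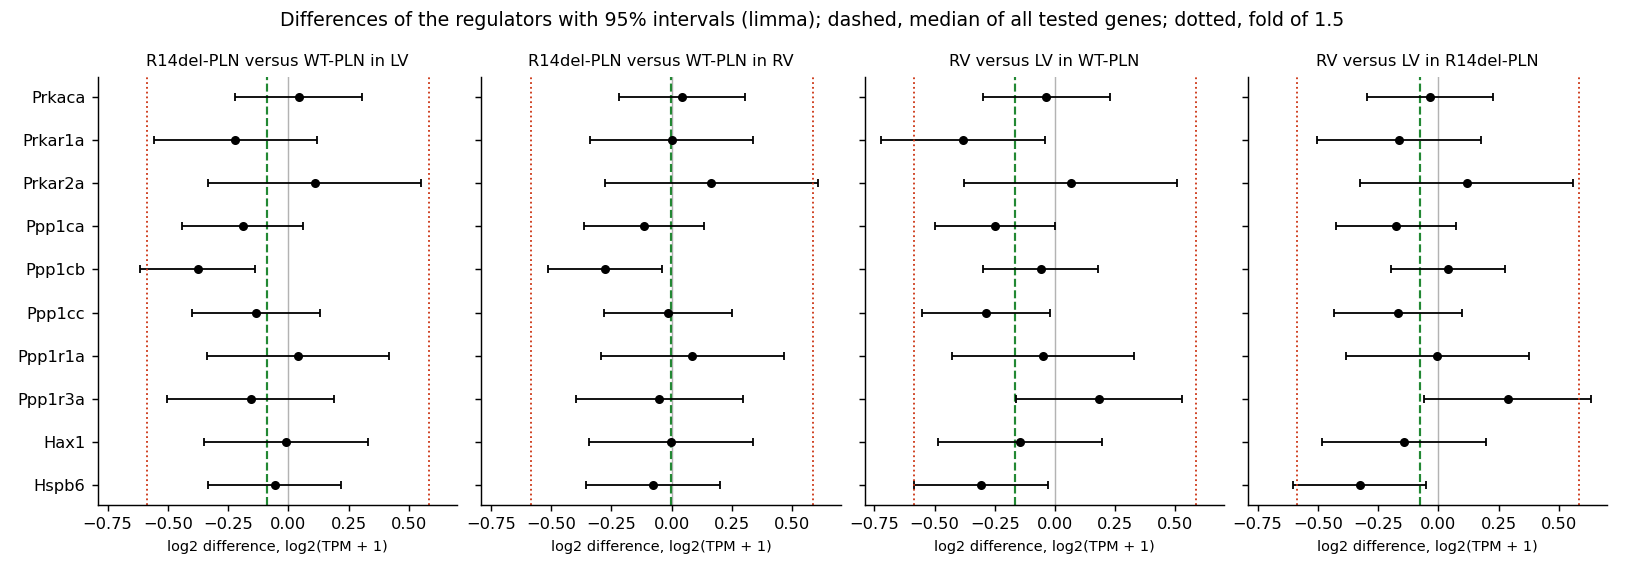
Difference of each gene on the log2(TPM + 1) scale (x axes) with its 95% limma interval, for 4 comparisons; the dashed line is the median of all 12526 tested genes and the dotted lines mark a fold of 1.5. The Ppp1cb interval lies below 0 in both genotype comparisons, and those of Prkar1a, Ppp1ca, Ppp1cc and Hspb6 lie below 0 for RV versus LV in WT-PLN.

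The level of the kinase gene overlapped among all groups. Prkaca (ENSMUSG00000005469.10, chr8:83972993-83996443) encodes the main catalytic subunit of PKA in the heart. It was at 98.2, 96.5 and 108 TPM in LV WT-PLN, 98.0, 88.1 and 110 TPM in RV WT-PLN, 96.1, 100 and 116 TPM in LV R14del-PLN, and 105, 106 and 93.0 TPM in RV R14del-PLN. No group stood apart. Its genotype difference was 0.04 on the log2 scale in each ventricle, with 95% intervals of -0.22 to 0.30 in LV and -0.22 to 0.31 in RV (limma adjusted p = 0.950 and 1), so a change of 1.5-fold lay outside both intervals. Prkacb, the second catalytic gene, had a mean of 13.4 TPM, and Prkaca made up 86.6% to 89.8% of the pair in every sample.

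Prkar1a (ENSMUSG00000020612.16, chr11:109649405-109669656) encodes the type I regulatory subunit, which holds the kinase inactive without cAMP. In LV WT-PLN it was at 99.9, 131 and 136 TPM, and in RV WT-PLN at 79.1, 94.9 and 107 TPM. LV R14del-PLN samples were at 97.3, 95.1 and 122 TPM, and RV R14del-PLN samples at 87.9, 104 and 87.7 TPM. LV WT-PLN stood highest on average but its lowest sample lay within the range of the other groups. The RV of WT-PLN hearts was 0.38 below the LV on the log2 scale (SE 0.16, limma adjusted p = 0.307), beside a median of -0.17 over all genes. Prkar2a (ENSMUSG00000032601.13, chr9:108689314-108750436) encodes the type II subunit that A-kinase anchoring proteins tether near the sarcoplasmic reticulum. Its group means were 25.3 ± 3.17, 26.7 ± 5.29, 27.7 ± 6.06 and 30.4 ± 8.50 TPM (SD, n = 3) in LV WT-PLN, RV WT-PLN, LV R14del-PLN and RV R14del-PLN. Within RV R14del-PLN it spread from 24.3 to 40.1 TPM, and all groups overlapped. The sum of both regulatory genes over Prkaca was 1.46 ± 0.202 in LV WT-PLN, 1.22 ± 0.172 in RV WT-PLN, 1.27 ± 0.0780 in LV R14del-PLN and 1.22 ± 0.130 in RV R14del-PLN (SD, n = 3), with overlap throughout.

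Of the 3 catalytic genes of PP1, the phosphatase that reverses the PKA mark on PLN, only Ppp1cb had genotypes without overlap. Ppp1cb (ENSMUSG00000014956.15, chr5:32458843-32517433) encodes the beta isoform, which also works with myosin-targeting subunits. It was at 142, 147 and 152 TPM in LV WT-PLN and at 117, 113 and 109 TPM in LV R14del-PLN. RV WT-PLN samples were at 134, 130 and 160 TPM, and RV R14del-PLN samples at 114, 109 and 125 TPM. In each ventricle every R14del-PLN sample was below every WT-PLN sample. The LV difference was -0.38 on the log2 scale (95% interval -0.61 to -0.14) with an unadjusted p of 0.00453 and a limma adjusted p of 0.223. The RV difference was -0.28 (-0.51 to -0.04), with an unadjusted limma p of 0.0259 and a limma adjusted p of 0.671. The exact permutation test on TPM gave 0.1 in each ventricle, the smallest two-sided p that 3 samples against 3 allow. The interaction was 0.10 (-0.24 to 0.44, limma adjusted p = 1.00), so the size of the genotype difference was not shown to vary by ventricle.

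Among these 10 genes, groups without overlap were found for 2 in the LV, Ppp1cb and Ppp1r3a, both lower in R14del-PLN, and for 1 in the RV, Ppp1cb. Over all genes tested, 8.47% were lower without overlap and 2.48% higher in the LV, and 5.79% lower and 5.19% higher in the RV. Leaving out each sample in turn left the Ppp1cb difference between -0.40 and -0.35 in the LV and between -0.33 and -0.19 in the RV, with limma adjusted p of 0.170 to 0.633 and 0.697 to 1. Without both WT-PLN replicate 1 samples it was -0.40 (adjusted p = 0.220) and -0.31 (adjusted p = 0.715). Without RV R14del-PLN replicate 3, the sample of the other run, the RV difference was -0.33 (adjusted p = 0.731).

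Ppp1ca (ENSMUSG00000040385.7, chr19:4192065-4195420) encodes the alpha isoform. Its samples were at 122, 127 and 143 TPM in LV WT-PLN, 110, 106 and 113 TPM in RV WT-PLN, 109, 106 and 128 TPM in LV R14del-PLN, and 109, 101 and 93.4 TPM in RV R14del-PLN. LV WT-PLN was above RV WT-PLN without overlap, a difference of -0.25 for RV minus LV (limma adjusted p = 0.344). An antisense gene, AC109138.6, overlaps Ppp1ca on the other strand at a mean of 278 TPM and ranged from 99.5 to 554 TPM. Its means were 283 ± 145, 216 ± 108, 365 ± 164 and 247 ± 65.2 TPM (SD, n = 3) in the same order of groups. The methods describe stranded libraries, and whether the counting used strand is not stated, so the separation of reads between this pair is uncertain. Ppp1cc (ENSMUSG00000004455.16, chr5:122158278-122175273) encodes the gamma isoforms. It was at 47.0, 52.5 and 58.7 TPM in LV WT-PLN and 41.4, 42.3 and 44.8 TPM in RV WT-PLN, again without overlap (-0.29, limma adjusted p = 0.315). LV R14del-PLN samples were at 45.3, 47.6 and 50.3 TPM and RV R14del-PLN samples at 44.4, 36.8 and 46.7 TPM, which overlapped. GENCODE M21 holds 4 near-identical copies of Ppp1cc transcripts (at least 95% identity), among them Ppp1ccb at 100%, so the level of Ppp1cc is uncertain. Of these copies only Gm14122 has a row in the deposited values, at a mean of 0.181 TPM. In both genotype comparisons, Ppp1ca and Ppp1cc overlapped between WT-PLN and R14del-PLN.

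Inhibitor-1 had the lowest transcript level. Ppp1r1a (ENSMUSG00000022490.7, chr15:103530279-103538003) was at 0.706 ± 0.337, 0.636 ± 0.220, 0.732 ± 0.0846 and 0.750 ± 0.375 TPM (SD, n = 3) in LV WT-PLN, RV WT-PLN, LV R14del-PLN and RV R14del-PLN. In the R14del-PLN comparisons its interval ran from -0.34 to 0.42 in LV and from -0.29 to 0.46 in RV. At such low levels, adding 1 TPM before the logarithm shrinks any change. The summed PP1 catalytic level exceeded it throughout, with a ratio of Ppp1r1a over PP1 of 0.00116 to 0.00438 among the 12 samples.

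Ppp1r3a (ENSMUSG00000042717.5, chr6:14713977-14755274) encodes the striated muscle subunit that targets PP1 to glycogen and the sarcoplasmic reticulum. It was at 24.1, 22.6 and 24.0 TPM in LV WT-PLN and at 19.1, 22.1 and 22.1 TPM in LV R14del-PLN, which did not overlap (-0.16, 95% interval -0.50 to 0.19, limma adjusted p = 0.829). RV WT-PLN samples were at 26.4, 22.9 and 32.2 TPM, and RV R14del-PLN samples at 22.0, 33.3 and 23.8 TPM. The RV was above the LV on average in both genotypes, by 0.18 in WT-PLN and 0.29 in R14del-PLN on the log2 scale, with overlap and limma adjusted p of 0.564 and 0.832. Leaving out each sample in turn moved these values between 0.06, without RV WT-PLN replicate 3, and 0.29, and between 0.11, without RV R14del-PLN replicate 2, and 0.40.

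HSP20 and HAX-1 are the partner proteins among the 10. Hspb6 (ENSMUSG00000036854.14, chr7:30552178-30555443) encodes HSP20, a small heat shock protein that PKA phosphorylates and that inhibits PP1. It was at 449, 500 and 495 TPM in LV WT-PLN and 375, 383 and 408 TPM in RV WT-PLN, where each RV sample was below each LV sample. In R14del-PLN hearts the LV was at 456, 408 and 531 TPM and the RV at 355, 331 and 424 TPM, where the highest RV sample exceeded the lowest LV sample. The RV minus LV difference was -0.31 in WT-PLN (95% interval -0.58 to -0.03, limma adjusted p = 0.311) and -0.33 in R14del-PLN (-0.60 to -0.05, limma adjusted p = 0.737). As a percent of the LV mean TPM, the RV differed by -19.2% and -20.3%. Genotype differences were -0.06 in LV and -0.08 in RV, each with an interval that spans 0. Without LV R14del-PLN replicate 3, the sample with the lowest mitochondrial share, the R14del-PLN ventricle difference was -0.23 and its unadjusted p was 0.0754 by limma. Without RV R14del-PLN replicate 3, the sample of the other run, it was -0.43 with an unadjusted limma p of 0.00811, and the limma adjusted p was 0.999 and 1.00.

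Hax1 (ENSMUSG00000027944.13, chr3:89995446-89998780) encodes HAX-1, an anti-apoptotic protein of mitochondria and sarcoplasmic reticulum that binds PLN. Its samples were at 16.3, 18.0 and 18.8 TPM in LV WT-PLN, 15.6, 14.6 and 17.5 TPM in RV WT-PLN, 15.6, 14.7 and 23.6 TPM in LV R14del-PLN, and 16.3, 16.3 and 14.9 TPM in RV R14del-PLN. LV R14del-PLN replicate 3 was the highest of the 12. Without it, the LV genotype difference moved from -0.01 to -0.21 (limma adjusted p from 0.991 to 0.312), and the RV minus LV difference in R14del-PLN from -0.14 to 0.06. A near-identical copy of Hax1, Gm14270 (99.3% identity), had a mean of 0.0059 TPM.

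Ventricle differences depended on how the values were scaled, and RV samples of WT-PLN hearts carried a larger mitochondrial share than LV samples. For RV versus LV, groups without overlap were found for 3 of the 10 in WT-PLN, Ppp1ca, Ppp1cc and Hspb6, all lower in RV, and for 0 in R14del-PLN. Over all genes, 25.2% were lower in RV without overlap and 0.974% higher in WT-PLN, and 8.72% lower and 1.26% higher in R14del-PLN. The median difference of all genes in WT-PLN was -0.17 on the log2 scale as deposited, -0.06 without mitochondrially encoded genes and 0.01 after quantile normalization, beside -0.10, -0.00 and 0.05 for the 10 genes. In R14del-PLN it was -0.08, 0.06 and 0.00, beside -0.09, 0.05 and 0.01. Under the 3 scalings and in both genotypes, 4 genes had RV below LV (Hspb6, Ppp1ca, Ppp1cc and Prkar1a) and 2 had RV above LV (Ppp1r3a and Prkar2a). In R14del-PLN hearts without mitochondrially encoded genes, Ppp1ca, Ppp1cc and Prkar1a were at only -0.014, -0.0057 and -0.0013. Their sign there says little. The other 4 (Prkaca, Ppp1cb, Ppp1r1a and Hax1) changed sign with the scaling in at least 1 genotype. Hspb6 in WT-PLN hearts was at -0.31 as deposited, -0.17 without mitochondrially encoded genes and -0.08 after quantile normalization.

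**Figure D3:**
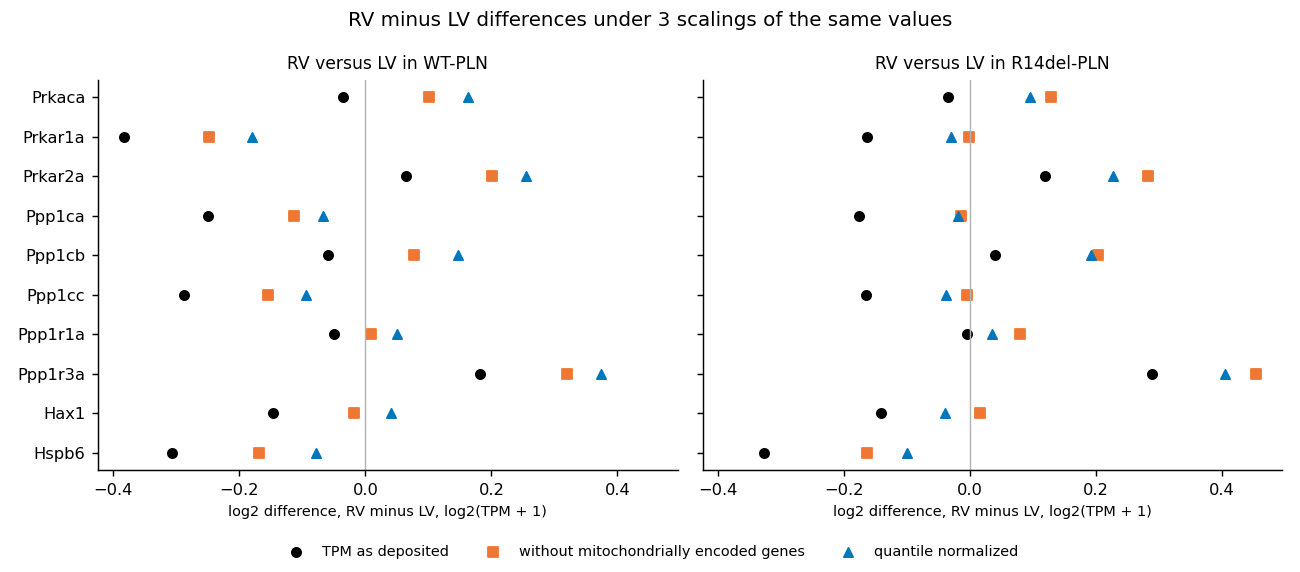
RV minus LV difference of the 10 genes on the log2(TPM + 1) scale (x axes), in WT-PLN (left) and R14del-PLN hearts (right), as deposited (circles), without mitochondrially encoded genes (squares) and after quantile normalization (triangles). In WT-PLN hearts both other scalings move every gene to the right of the deposited value, and Hspb6 goes from -0.31 to -0.17 and -0.08.

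In WT-PLN hearts, LV and RV samples of the same replicate number deviated together (r = 0.657, 0.321 and 0.457 across genes), so a fit paired by number was also made. With this replicate block within genotype as a fixed effect, 12 genes were called for RV versus LV in WT-PLN, and 0 of them were among the 10. With the same block as a random effect, 0 genes were called. Under the fixed block Hspb6 was at an adjusted p of 0.312, Prkar1a at 0.272, Ppp1cc at 0.345 and Ppp1ca at 0.406 (limma).

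In the genotype comparisons, the median difference of all genes was -0.09 in LV and -0.00 in RV, and that of the 10 genes was -0.10 and -0.01. Ppp1ca, Ppp1cb and Ppp1r3a were below 0 in both ventricles under all 3 scalings, and Prkaca, Prkar2a and Ppp1r1a above 0. Ppp1r3a in the RV was near 0, at -0.05 as deposited, -0.009 without mitochondrially encoded genes and -0.008 after quantile normalization. For Ppp1cb in the LV, the value was -0.38 as deposited, -0.36 without mitochondrially encoded genes and -0.28 after quantile normalization. Its limma adjusted p under these scalings was 0.210 and 0.345.

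Ratios within a sample are not altered by a factor applied to the whole sample, and 10 ratios were compared in 4 comparisons by exact permutation tests, 40 in all. Kinase over phosphatase, as Prkaca over the summed Ppp1ca, Ppp1cb and Ppp1cc, was 0.316, 0.296 and 0.305 in LV WT-PLN and 0.354, 0.376 and 0.404 in LV R14del-PLN. In the RV it was 0.343, 0.317 and 0.346 in WT-PLN and 0.392, 0.431 and 0.351 in R14del-PLN. All R14del-PLN samples were above all WT-PLN samples of the same ventricle, by 23.7% in LV and 16.7% in RV. The smallest gap was in the RV, between 0.346 and 0.351. In WT-PLN hearts the RV samples were also above the LV samples, by 9.72% without overlap. Each exact two-sided p was 0.1, the smallest possible, and 0.308 adjusted over the 40.

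Phosphatase over substrate, the summed PP1 catalytic level over Pln, was 0.183 ± 0.00513 in LV WT-PLN, 0.169 ± 0.00462 in LV R14del-PLN, 0.166 ± 0.00347 in RV WT-PLN and 0.151 ± 0.0129 in RV R14del-PLN (SD, n = 3). The R14del-PLN samples were below the WT-PLN samples in each ventricle, and the RV samples below the LV samples in each genotype, without overlap in any of the 4 comparisons. These comparisons share samples, and each had an exact p of 0.1 and an adjusted p of 0.308. They also rest on the uncertain level of Pln, as do all ratios over Pln. Prkaca over Pln was 13.9% higher in R14del-PLN than in WT-PLN in the LV without overlap, and overlapped in the RV. Between RV and LV of R14del-PLN hearts it differed by -7.95% without overlap. Ppp1cb made up 44.6% ± 1.43 of the PP1 catalytic level in LV WT-PLN and 41.1% ± 2.72 in LV R14del-PLN, and 48.1% ± 1.96 and 44.7% ± 2.29 in the RV (SD, n = 3). The genotypes overlapped in both ventricles, and RV WT-PLN was above LV WT-PLN without overlap.

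Partner ratios separated the ventricles of WT-PLN hearts without overlap, and in R14del-PLN hearts they differed the same way on average, with overlap. Hspb6 over Pln was 0.263, 0.274 and 0.264 in LV WT-PLN and 0.220, 0.231 and 0.208 in RV WT-PLN. In R14del-PLN hearts it was 0.292, 0.252 and 0.309 in LV and 0.207, 0.183 and 0.257 in RV, which overlapped. Hax1 over Pln differed by -8.83% between RV and LV of WT-PLN hearts, without overlap, and by -16.2% in R14del-PLN hearts, with overlap. Ppp1r3a over PP1 was 0.0716 ± 0.00526 in LV and 0.0920 ± 0.00958 in RV of WT-PLN hearts (SD, n = 3), without overlap, and 0.0767 ± 0.00613 and 0.102 ± 0.0287 in R14del-PLN hearts, with overlap. In all, 13 of the 40 comparisons had groups that did not overlap, and none had an adjusted exact p under 0.308. The ratios share genes and samples, so these 13 are not separate findings. Without any difference, groups of 3 against 3 separate at a rate of 0.1, and ratios of other genes were not computed.

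**Figure D4:**
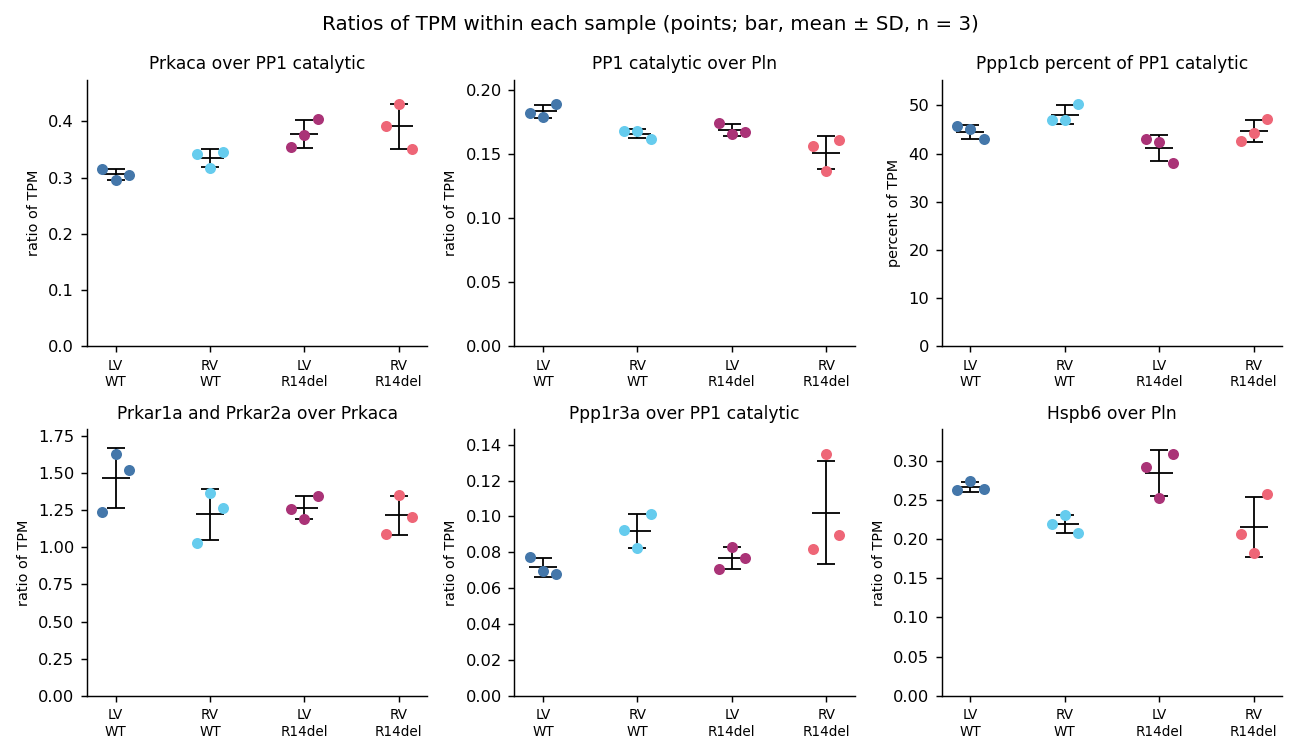
Ratios of TPM within each sample (y axes from 0; Ppp1cb as a percent of the 3 PP1 catalytic genes) in the 4 groups; points are samples and bars give mean ± SD (n = 3). Prkaca over PP1 averages 0.306 in LV WT-PLN and 0.378 in LV R14del-PLN, and PP1 over Pln is highest in LV WT-PLN (0.183) and lowest in RV R14del-PLN (0.151).

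Wider lists of the same pathways also had 0 genes called in all 5 comparisons. Of 9 genes for PKA subunits and their peptide inhibitors, all were tested, and at an unadjusted p under 0.05 only Prkar1a appeared, lower in RV of WT-PLN hearts. Pkia, an inhibitor of the free catalytic subunit, had a mean of 115 TPM and was at 103 ± 7.18 and 123 ± 26.7 TPM (SD, n = 3) in LV WT-PLN and LV R14del-PLN. Of 17 A-kinase anchoring proteins, 15 were tested and 0 had an unadjusted p under 0.05 in any comparison. Pde4dip, which anchors PKA and a phosphodiesterase, was the most abundant at 369 TPM, followed by Cmya5 at 84.9 TPM. Akap7, whose product tethers PKA to PLN, was at 22.1 ± 1.48 TPM in LV WT-PLN and 19.0 ± 2.64 TPM in LV R14del-PLN (SD, n = 3, limma adjusted p = 0.646).

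Of 15 cAMP phosphodiesterases, which end the signal to PKA, 14 were tested. Unadjusted p under 0.05 was reached by 3 in the LV genotype comparison, all lower in R14del-PLN, and by 3 in the RV, 2 lower and 1 higher, beside 9.6% and 6.22% of all genes. Pde7a was at 39.2 ± 4.21 TPM in LV WT-PLN and 21.8 ± 4.79 TPM in LV R14del-PLN (SD, n = 3), a log2 difference of -0.84 (SE 0.21, limma adjusted p = 0.137) without overlap. RV levels of Pde7a were 33.0 ± 5.21 and 23.1 ± 7.57 TPM (SD, n = 3), with overlap (limma adjusted p = 0.674). Pde1c was at 12.2 ± 1.99 TPM in LV and 15.8 ± 2.76 TPM in RV of WT-PLN hearts (SD, n = 3). In R14del-PLN hearts it was at 11.3 ± 2.05 and 15.0 ± 3.98 TPM (SD, n = 3).

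Of 36 PP1 subunits and inhibitors, 34 were tested. In the LV genotype comparison 6 were lower and 2 higher in R14del-PLN at an unadjusted p under 0.05, beside 9.6% of all genes, and the median was -0.14 beside -0.09 for all genes. In the RV these counts were 3 and 1, beside 6.22% of all genes, and the median was -0.04 beside -0.00. Ppp1cb was among the lower ones in both ventricles. Ppp1r11, an inhibitor of PP1, was at 49.3 ± 3.63 TPM in LV and 37.8 ± 3.24 TPM in RV of WT-PLN hearts. In R14del-PLN hearts these levels were 46.9 ± 0.741 and 32.8 ± 5.75 TPM (SD, n = 3). Both ventricle differences were without overlap, with limma adjusted p of 0.288 and 0.711. Of 19 PP2A and calcineurin subunits, 18 were tested, and 2 were lower in LV R14del-PLN at an unadjusted p under 0.05, beside 9.6% of all genes. Ppp2cb, a PP2A catalytic gene, was at 23.0 ± 2.46 TPM in LV and 17.5 ± 1.02 TPM in RV of WT-PLN hearts (SD, n = 3, limma adjusted p = 0.260), without overlap. In R14del-PLN hearts it was at 18.7 ± 2.03 and 15.9 ± 0.972 TPM (SD, n = 3, limma adjusted p = 0.832), also without overlap. Ppp2r3a and Ppp2r1a had means of 84.8 and 50.1 TPM.

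Among 12 small heat shock proteins and cochaperones, 5 were lower in RV than LV of WT-PLN hearts at an unadjusted p under 0.05, and 3 in R14del-PLN hearts, beside 14.5% and 6.57% of all genes. Hspb6 was among the 5 and among the 3. In each genotype comparison 2 were lower and 1 higher in R14del-PLN at that p, beside 9.6% of all genes in LV and 6.22% in RV. Hspb7 was at 1008 ± 78.9 and 699 ± 22.8 TPM (SD, n = 3) in LV and RV of WT-PLN hearts, and Cryab, which encodes alphaB-crystallin, at 1335 ± 90.5 and 1019 ± 79.2 TPM, both without overlap (limma adjusted p = 0.252 and 0.307). In R14del-PLN hearts both were lower in RV on average, with overlap. Hspb3 was higher in R14del-PLN, at 10.2 ± 1.55 against 7.36 ± 0.508 TPM in LV and 8.59 ± 0.161 against 5.69 ± 0.776 TPM in RV (SD, n = 3). Its groups did not overlap in either ventricle, and the limma adjusted p was 0.272 and 0.165. Of 6 genes for HAX-1 and its partners, 0 had an unadjusted p under 0.05. Clpb and Parl, a mitochondrial disaggregase and a mitochondrial protease, had means of 34.7 and 24.5 TPM. Of 8 genes for SERCA2a, PLN and other regulators of the pump, 6 were matched by symbol. S100a1, whose calcium-binding product enhances SERCA2a, was at 694 ± 46.8 TPM in LV and 529 ± 18.6 TPM in RV of WT-PLN hearts (SD, n = 3, limma adjusted p = 0.258), without overlap. In R14del-PLN hearts it was at 644 ± 106 and 516 ± 41.1 TPM (SD, n = 3, limma adjusted p = 0.738), also without overlap. Pln itself had adjusted p of 0.746 in LV and 1 in RV between genotypes, and Atp2a2, the SERCA2a gene, of 0.919 and 1 (limma).

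Sums of marker genes of 9 cell types were set beside the ventricle and genotype differences, with no test. In WT-PLN hearts the LV and RV sums did not overlap for 3 lists, endothelial, erythroid and skeletal muscle, and in R14del-PLN hearts for 1, skeletal muscle. The sum of 6 endothelial markers was 140 to 180 TPM in LV WT-PLN, 104 to 119 TPM in RV WT-PLN, 139 to 174 TPM in LV R14del-PLN and 111 to 141 TPM in RV R14del-PLN, with all 6 above 0. For 5 erythroid markers, all above 0, the sums in the same order were 2087 to 2316, 1461 to 1736, 1093 to 2142 and 956 to 1368 TPM. For 6 skeletal muscle genes they were 132 to 200, 20.7 to 49.0, 51.5 to 120 and 8.13 to 39.7 TPM, with Myh4 and Myh1 listed at 0 in some samples. The other lists overlapped between ventricles in both genotypes. In LV and RV of WT-PLN hearts, the sums were 278 to 497 and 301 to 387 TPM for 6 fibroblast markers, 175 to 396 and 150 to 190 TPM for 6 smooth muscle and pericyte markers, 128 to 195 and 106 to 131 TPM for 6 leukocyte markers, and 3.80 to 16.5 and 2.80 to 5.04 TPM for 5 adipocyte markers, where Ucp1 was listed at 0 in some samples. In R14del-PLN hearts they were 233 to 361 and 271 to 375 TPM for fibroblast, 152 to 241 and 154 to 206 TPM for smooth muscle and pericyte, 124 to 155 and 95.5 to 173 TPM for leukocyte, and 2.38 to 4.62 and 3.34 to 19.3 TPM for adipocyte markers. Between genotypes, the sums did not overlap for skeletal muscle in the LV and for erythroid markers in the RV, both lower in R14del-PLN. The part of cell types in the ventricle differences of Hspb6, Ppp1ca, Ppp1cc and Prkar1a was not tested, nor was their part in the genotype difference of Ppp1cb.

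For each gene, the other tested gene with the highest Pearson r over the 12 samples was found on log2(TPM + 1) without mitochondrially encoded genes. This is the best of many genes over samples that share groups and libraries, so r is a description. Prkar2a went closest with Add1 (r = 0.972), Ppp1r3a with Aasdhppt (0.965), Ppp1ca with Pef1 (0.965), Prkar1a with Rapgef1 (0.964) and Prkaca with Garem1 (0.940). Ppp1cb went with Ap3s1 (0.926), Ppp1cc with Gm12416 (0.923), Hspb6 with BC003965 (0.910), Ppp1r1a with 1700025G04Rik (0.906) and Hax1 with Zfp87 (0.867). With Pln itself, r was 0.855 for Ppp1r3a, 0.733 for Ppp1cb and 0.644 for Prkaca, and -0.334 for Hspb6.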

How the data were processed

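The authors deposited 1 table per sample with TPM values per gene, made from LV or RV tissue, and the methods describe stranded polyA libraries. The methods name CLC Genomics Workbench for mapping to GRCm38. The program and annotation behind the deposited TPM, and whether counting used strand, are not given in the sources used here. Each sample's TPM add up to 1000000, so depth is unknown and no counting interval was given.

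Of 33641 genes, 12526 averaged 0.5 TPM or more. A model of 4 group means over all 12 samples was fitted to their log2(TPM + 1) with limma 3.58.1 in R 4.3.3, with an intensity trend. It had 8 residual degrees of freedom and a prior of 5.15. Calls required an adjusted p (Benjamini-Hochberg) no higher than 0.05 and a fold of 1.5 or more. Samples labelled as knock-out in their titles were read as R14del-PLN from their genotype label. Ratios of TPM were compared by exact two-sided permutation tests of 3 samples against 3, adjusted over 40. Python 3.11.15, numpy 2.4.6, pandas 2.3.3, scipy 1.17.1, matplotlib 3.10.9 and BLAST 2.17.0 (copies of at least 95% identity over 80% of the shorter transcript) were used. The fit was tested on simulated data.

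Named genes were the 10 genes, Pln and Atp2a2, from each list without a called gene the 2 with the highest mean and the 1 with the smallest p, and the nearest gene by Pearson r. Prkacb and AC109138.6 lie outside this rule and were added after their values were seen. The genes and lists were chosen with earlier results of these data known. Of 175 list and marker genes, 173 matched by symbol.

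In WT-PLN hearts, LV and RV samples of equal replicate number deviated together, although the labels do not state that they share a mouse. The correlations of deviations from the group means were 0.321 to 0.657 there. In R14del-PLN hearts they were 0.0542 to 0.389, and between genotypes -0.0209 to 0.219. The main fit used no pairs. Among the alternatives, the block within genotype paired equal numbers in both genotypes, and the replicate block joined equal numbers across genotypes.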

Additional observations from a re-analysis of the deposited data

How the results depend on the processing

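Under 24 alternatives, none of the 10 genes was called in any of the 5 comparisons, and the smallest limma adjusted p was 0.143. The alternatives were a pseudocount of 0.1, a minimum mean of 5 TPM, no minimum, no intensity trend, no fold threshold, quantile normalization, removal of mitochondrially encoded genes, only the 2 groups compared, the replicate blocks, both WT-PLN replicate 1 samples left out, and each of the 12 samples left out in turn. Of 915 values for the 10 genes, 96 changed sign within their standard error, and the other values kept their direction. Many of these values could not change sign. The other minimum means, no intensity trend, no fold threshold, only the 2 groups compared and the replicate blocks leave the difference itself as it was. Of 390 values of the ratios, 25 changed sign within the standard error, and 0 of these belonged to the 13 comparisons without overlap. That 0 was largely fixed in advance. Leaving a sample out cannot reverse groups that do not overlap, and removing mitochondrially encoded genes leaves every ratio within a sample unchanged.

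The number of genes called depended more on these choices, and none of the 10 was among them. In the LV genotype comparison, 65 genes became 22 with no minimum, 104 after quantile normalization, 119 with the replicate block, 231 without both WT-PLN replicate 1 samples and 19 to 153 when 1 sample was left out. It was 153 without LV WT-PLN replicate 1, 20 without LV WT-PLN replicate 2 or 3, 19 without LV R14del-PLN replicate 1 and 27 without LV R14del-PLN replicate 2. In the RV, 34 became 17 with no minimum, 85 after quantile normalization, 72 without mitochondrially encoded genes, 62 with the replicate block, 88 without both WT-PLN replicate 1 samples and 14 to 39 with 1 sample left out, with 14 without RV WT-PLN replicate 2, 17 without RV WT-PLN replicate 3 and 20 without RV R14del-PLN replicate 3. For RV versus LV in WT-PLN, 0 became 1 with no minimum or with only the 2 groups. It became 2 without mitochondrially encoded genes or without both WT-PLN replicate 1 samples. With the fixed replicate block within genotype, which was added after seeing the data, it became 12, and with the random one it stayed 0. It was 0 to 2 with 1 sample left out. In R14del-PLN and for the interaction, leaving out 1 sample gave 0 to 1, with 1 without RV R14del-PLN replicate 3 in the former and without LV WT-PLN replicate 2 or RV WT-PLN replicate 3 in the latter. The cause of these moves was not tested. The numbers do not pair the genotypes, so the block there is a hint only. With 3 samples a group, the exact tests cannot go below 0.1.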
